A study of Arabidopsis thaliana with 16 samples.

Results

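In Arabidopsis thaliana roots, 90 genes were at least 4 times as high in both warm regimes as at 22 °C and reached levels within 1.5-fold of each other in the 2 warm regimes. The genes were chosen by the root values themselves. Group means plus 1 were compared, both warm means had to be at least 100, and loci with chloroplast or mitochondrial codes were left out. Of 32833 loci in the table, 32548 carried nuclear codes, and 0.277% of those met the rule.

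Wild type seedlings were grown on MS1/2 medium for 4 days at 22 °C and were then kept for 6 days in 1 of 3 regimes, which made them 10 days old at harvest. The whole plant stayed at 22 °C, or the whole plant was moved to 32 °C, or the shoot was held at 32 °C while the temperature of the root zone fell with depth (called the gradient below). Roots and shoots were profiled separately by RNA-seq of mRNA isolated with oligo(dT). The temperatures along the gradient are not given in the labels.

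The deposited values were the authors' normalised counts, written as whole numbers, and they are not divided by gene length, so levels are compared here within a gene and not between genes. Of the 16 columns, replicates 1 and 2 of the 22 °C roots were identical at every locus, and so were replicates 2 and 3 of the gradient shoots. Each identical pair was counted as 1 library, which left 14. That makes 1 root library for 22 °C, 3 for 32 °C and 3 for the gradient regime. For shoots the numbers are 2, 3 and 2. Whether replicates were grown separately is not stated in the labels, and every p-value reflects only the variation among these libraries. Column totals lay between 33075029 and 34769425, and the read depth behind them is unknown. In bulk tissue, fewer cells of a type and less RNA per cell cannot be told apart.

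Plants sense warmth through changes in protein folding, in membranes and in light and clock signalling, and heat shock factors switch on chaperone genes when proteins unfold. Roots depend on the shoot for sugar and for some of their hormones, and they supply it with water and nutrients. Glucosinolates are sulfur-containing defence compounds of the cabbage family, made from methionine or tryptophan. When phosphate is short, plants replace phospholipids and free phosphate from internal stores under the transcription factor PHR1.

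Root values of the 90 genes are a description with no test, since they chose the genes, and every ratio to 22 °C rests on the 1 library of the 22 °C root. Ratios are between means plus 1. In 32 °C roots 665 nuclear loci reached 4-fold with a mean of at least 100, in gradient roots 289 did, and 167 did so in both. Of those 167, 77 were not alike in the warm regimes. The whole-plant regime was the higher one for 58 of the 77, and the gradient for 19. These counts are on the deposited scale, where the median log2 root change of all tested genes was 0.29 at 32 °C and 0.09 in the gradient. The split of the 77 under another scaling is not given here. Among the 90 genes the median ratio to the 22 °C root was 6.41 at 32 °C and 5.84 in the gradient, and the smaller of the ratios ran from 4.00 to 38.9. It was over 10 in 13 genes. In 59 genes each of the 6 warm root libraries was at least 4 times the 22 °C library.

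Likeness of the means did not always mean that libraries overlapped. The 32 °C and gradient root libraries overlapped in 70 of the 90 genes, and in 20 they did not, with 12 higher at 32 °C and 8 higher in the gradient. On the deposited scale, the 32 °C libraries were all higher in 39.3% and all lower in 16.2% of the 16825 loci with means of at least 100 in both. Nothing is read from the lower share among the 90, since the likeness limit used these values. The spread within a regime was wider at the median than over all loci expressed above the same minimum. The median coefficient of variation was 16.3% in 32 °C roots and 18.9% in gradient roots, against 7.48% and 12.4% over all loci with means of at least 100 in both. No single gradient library was the highest throughout. The highest gradient root value came from replicate 1 in 34 genes, from replicate 2 in 25 and from replicate 3 in 31. At 32 °C the highest value came from replicate 3 in 49 genes, from replicate 2 in 33 and from replicate 1 in 8.

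At the edges of the rule, the receptor kinase gene AT5G16900 was just inside the 4-fold limit with a smaller ratio of 4.00, and CCR4 (AT5G47850) and CYP79F2 (AT1G16400) followed at 4.03 and 4.04. WAKL5 (AT1G16160) at 3.99, and AT1G03070 and AT3G32040 at 3.98, fell just outside. Just inside the likeness limit were AT4G02850 and AT1G63295, whose warm means differed 1.49-fold, and VSP2 (AT5G24770) at 1.48-fold. HSP18.2 (AT5G59720), AT1G51913 and AT1G51915 were just outside at 1.51-fold.

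**Figure D1:**
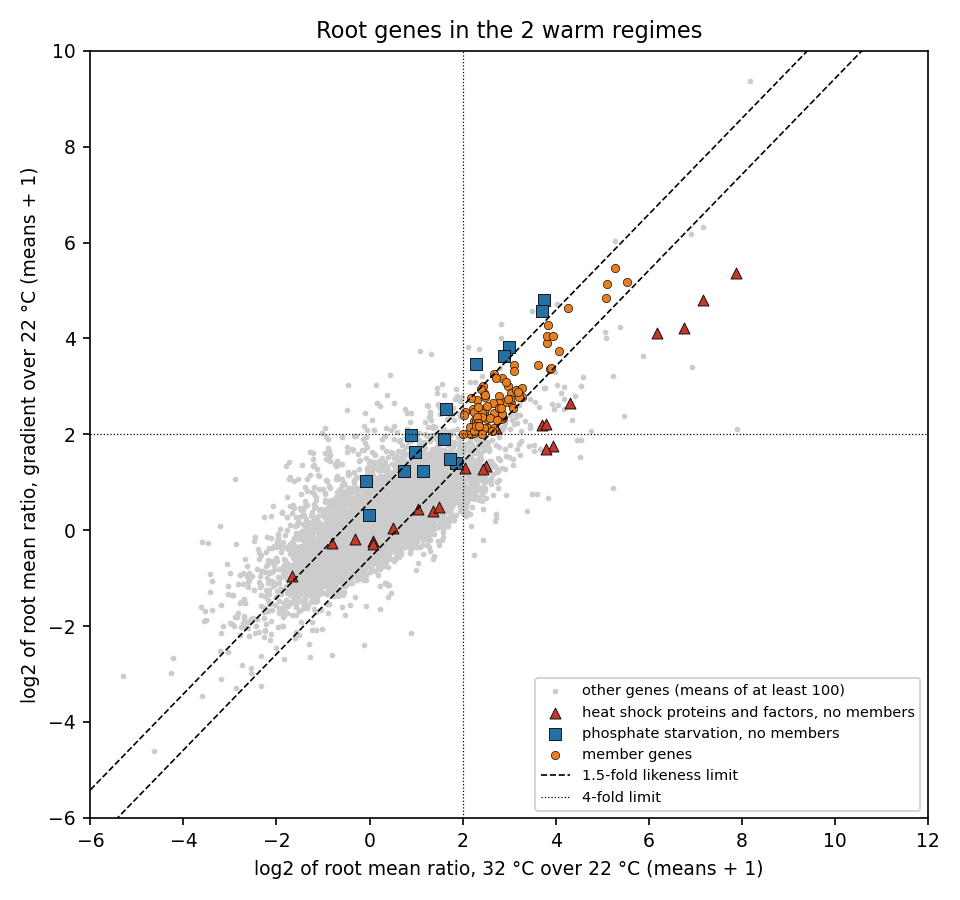
Ratio of root group means to the 22 °C root (means plus 1, log2 scale) at 32 °C on the x axis and in the gradient on the y axis, for nuclear genes with both warm means of at least 100. The 90 genes (orange) lie past the dotted 4-fold limits and between the dashed 1.5-fold limits, listed heat shock genes (red triangles) past both 4-fold limits lie on the 32 °C side, and 5 listed phosphate starvation genes (blue squares) past both lie on the gradient side.

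The shoot values were not used to choose the genes, so they could be tested. Of the 90 genes, 73 rose in 32 °C shoots against 22 °C shoots, 1 fell, 11 were not called and 5 were too low to test (limma on log2 values, adjusted p below 0.05 over 21877 tested genes). Over all tested genes, 55.5% rose and 13.0% fell. Against the same 22 °C libraries, 72 of the 90 rose in gradient shoots, 1 fell and 12 were not called, where 52.6% of all tested genes rose and 11.2% fell. The contrasts share the 22 °C shoots, and 69 genes were called higher in both. The share of all tested genes called higher in both is not given here. The median log2 fold change of the 85 tested genes was 2.28 at 32 °C and 1.99 in the gradient, against 0.49 in each contrast for all tested genes. Of the 85, 2 were listed at 0 in both 22 °C shoot libraries, and without them the medians were 2.28 and 1.99.

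With TMM factors, which bring the median change of all tested genes from 0.49 to near 0 in each contrast, 62 of the 90 rose and 3 fell at 32 °C, beside 30.9% and 32.1% of all tested genes. In gradient shoots 59 rose and 2 fell with TMM factors, beside 27.5% and 29.2%. The median log2 fold change of the tested genes was then 1.89 at 32 °C and 1.52 in the gradient. A gene tested only because it is high in warm shoots had to differ, so the 56 genes at 10 or more in both 22 °C shoot libraries were also counted alone. Of these, 46 rose and 1 fell at 32 °C, and 47 rose and 1 fell in the gradient, with medians of 1.79 and 1.63. The share over all genes at that 22 °C shoot level is not given here, so these counts have no matched share.

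Both warm shoot means were at least 4 times the 22 °C shoot mean in 37 of the 90 genes, against 5.76% of nuclear loci, and in 24 of the 37 the warm means were within 1.5-fold of each other. How many of all nuclear loci past both shoot folds were that alike is not given here, so nothing is read from the 24. All 5 warm shoot libraries lay above both 22 °C shoot libraries in 73 of the 90 genes and below both in 1, against 40.2% and 10.0% of nuclear loci. These shares of nuclear loci, like the 5.76%, include loci too low to test in shoots, while 85 of the 90 were tested. They are therefore lower than shares over tested genes would be and are not matched to the 90. None of the 90 was called in gradient shoots against 32 °C shoots, where 0.123% of all tested genes were higher and 0.265% lower. At an unadjusted p under 0.05, 21 of the 85 tested genes differed there, 15 of them lower in the gradient, against 14.7% of all tested genes.

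The root mean was above the shoot mean in 68 of the 90 genes at 22 °C, against 70.2% of all loci with warm root means of at least 100. In each warm regime it was above in 78, against 75.0% of those loci at 32 °C and 60.1% in the gradient, where the rule's 4-fold root rise favours a higher root mean. Of 8 root marker genes, 4 rose and 4 were not called in 32 °C shoots, where 55.5% of all tested genes rose, so nothing is read from this count. The summed level of the 8 was 14.7% to 16.5% of the 22 °C root level in 22 °C shoots and 52.3% to 80.9% in warm shoots, and no marker was at 0 in any library. PYK10 (AT3G09260), a root beta-glucosidase of ER bodies, held most of that sum and rose by 2.18 on the log2 scale in 32 °C shoots (limma adjusted p = 5.38e-05). The phosphate transporter gene PHT1;1 (AT5G43350) rose by 2.07, the root hair gene COBL9 (AT5G49270) by 1.70 and SHR (AT4G37650) by 0.68, beside a median of 0.49 over all tested genes. PYK10, PHT1;1 and COBL9 were also called higher in gradient shoots, and SHR was not, at 0.28 (limma adjusted p = 0.285). CASP1 (AT2G36100), which marks the Casparian strip of the root endodermis, changed by 0.05 (limma adjusted p = 0.846), TIP2;3 (AT5G47450) by -0.23 (limma adjusted p = 0.528), NRT2.1 (AT1G08090) by -0.10 (limma adjusted p = 0.889) and SCR (AT3G54220) by 0.08 (limma adjusted p = 0.445). The part of root tissue in the shoot results was not tested beyond these values. In roots the summed level of 6 green tissue markers was 0.0699% to 0.353% of that in 22 °C shoots.

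**Figure D2:**
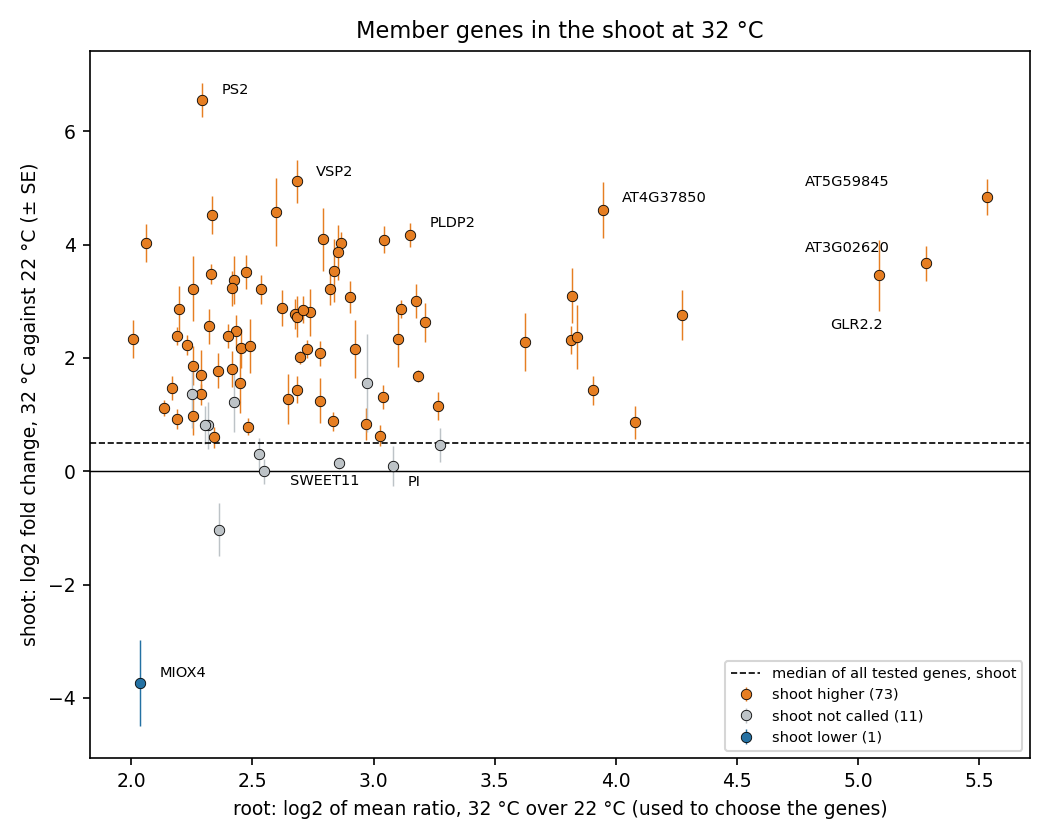
Root ratio of means at 32 °C over 22 °C on the x axis (log2 scale, used to choose the genes) against the shoot log2 fold change at 32 °C against 22 °C on the y axis (bars are standard errors), for the 85 tested genes. 73 genes were called higher (orange), 11 were not called (grey) and MIOX4 was called lower (blue), and the dashed line at 0.49 is the median of all tested genes.

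Among the genes with the widest root ratios was AT3G02620, annotated as a stearoyl-acyl-carrier-protein desaturase, an enzyme that puts the first double bond into plastid fatty acids. It stood at 159 in the 22 °C root, at 6328, 6066 and 6278 in the 32 °C roots and at 7514, 7527 and 6338 in the gradient roots. These were ratios of 38.9 and 44.5. In shoots it went from 26 and 32 at 22 °C to 354, 318 and 486 at 32 °C and 273 and 558 in the gradient. Warm and 22 °C libraries did not overlap in either organ, and the shoot rise at 32 °C was 3.67 ± 0.31 (log2 fold change ± SE, limma adjusted p = 3.39e-05). Its transcript is 94.3% identical to that of AT3G02610 over 66.8% of its length, and the sources used here do not say how reads shared by gene copies were counted.

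AT5G59845, a member of the gibberellin-regulated family of small cysteine-rich proteins, had 5 in the 22 °C root, 232, 354 and 244 at 32 °C and 214, 203 and 229 in the gradient. In shoots it read 2 and 4 at 22 °C, 107, 141 and 88 at 32 °C and 60 and 63 in the gradient, a rise of 4.84 ± 0.31 at 32 °C (limma adjusted p = 9.91e-06). GLR2.2 (AT2G24720), a glutamate receptor-like channel gene, went from 8 in the 22 °C root to 184, 362 and 368 at 32 °C and 240, 325 and 210 in the gradient. Its shoot values were low, at 0 and 2 at 22 °C, 21, 20 and 14 at 32 °C and 10 and 31 in the gradient, and the shoot rise at 32 °C was 3.46 ± 0.63 (limma adjusted p = 0.00164).

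A wide root ratio did not come with shoot expression in every case. AT2G44220, a gene of the DUF239 family, stood at 5 in the 22 °C root, 226, 205 and 186 at 32 °C and 238, 219 and 170 in the gradient, while its shoot values ran from 0 to 5. CYP96A8 (AT1G47620), a cytochrome P450 gene, had root ratios of 14.6 and 10.3 and shoot values from 0 to 6. These 2 genes were among the 5 too low to test in shoots, with the lectin gene AT1G16905, the GH3 family gene AT1G23160 and hemb2 (AT1G44318). The basic helix-loop-helix gene AT4G37850 had root ratios of 15.4 and 16.6 and rose in 32 °C shoots by 4.61 ± 0.50 (limma adjusted p = 0.000114), from 1 and 1 to 42, 33 and 79. GSTF14 (AT1G49860), a glutathione S-transferase gene, had ratios of 16.9 and 13.4 in roots, and its shoot values were 71 and 77 at 22 °C, 180, 137 and 100 at 32 °C and 172 and 272 in the gradient.

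Of 16 gene lists set beside the 90 genes and chosen with earlier results of these data known, aliphatic glucosinolate synthesis had the most members in common. Of 23 listed genes of this pathway, 6 passed the fold limits in both warm regimes, against 167 of 32548 nuclear loci. Only 16825 of the nuclear loci had both warm root means of at least 100. The lists were chosen with earlier results known and the fold limits use the root values, so nothing is read from this share. All 6 were alike enough to meet the rule. CYP79F2 (AT1G16400) met it in 4 of 8 settings of scaling or left-out libraries, and not with TMM factors, with equal totals, or without gradient root replicate 2 or 3. The others of the 6 met it in all 8 settings. Transamination of methionine by BCAT4 (AT3G19710) starts the pathway. MAM1 (AT5G23010) and MAM3 (AT5G23020, IMS2 in the RefSeq naming) are the condensing enzymes of methionine chain elongation, IPMI2 (AT2G43100) is a subunit of the isomerase of the same cycle, CYP79F2 makes aldoximes from the elongated amino acids, and AT2G31790, annotated as a UDP-glycosyltransferase, was listed for the later glucose transfer.

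MAM3 stood at 985 in the 22 °C root, at 8027, 9095 and 9749 in the 32 °C roots and at 5113, 8618 and 8076 in the gradient roots, ratios of 9.09 and 7.37. Its neighbour MAM1 read 407 at 22 °C, 1775, 2033 and 2397 at 32 °C and 1199, 2468 and 2079 in the gradient. BCAT4 read 413, then 2085, 2469 and 3427 at 32 °C and 1315, 2928 and 2497 in the gradient. In these 3 genes gradient replicate 1 was the lowest of the warm root libraries and was still above the 22 °C library. IPMI2 showed the same order, with 305 at 22 °C, 1828, 1847 and 2394 at 32 °C and 1243, 1791 and 1859 in the gradient. CYP79F2 went from 580 to 2266, 2462 and 3211 at 32 °C and 1693, 2762 and 2585 in the gradient, and AT2G31790 from 167 to 928, 1052 and 1281 and 719, 1006 and 947. In all 6 genes the lowest warm root library was that same gradient library.

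All 6 rose in both warm shoots, by very different amounts. MAM1, whose shoot level was already 4291 and 4681 at 22 °C, reached 6284, 8686 and 5736 at 32 °C and 5820 and 7729 in the gradient, a rise of 0.60 ± 0.19 (limma adjusted p = 0.0209). With TMM factors its change at 32 °C was 0.10 and not called (limma adjusted p = 0.618), and it was not called without either 22 °C shoot library, at 0.54 without replicate 1 and 0.66 without replicate 2. MAM3 rose from 378 and 370 to 1293, 1204 and 1119 at 32 °C and 758 and 908 in the gradient, by 1.68 ± 0.11 and 1.15 ± 0.12 (limma adjusted p = 9.08e-06 and 0.000112). The neighbouring genes thus differed in where they were high, MAM1 being higher in shoots than in roots in each regime and MAM3 higher in roots.

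CYP79F2 rose from 415 and 288 to 1672, 2040 and 1758 in 32 °C shoots, by 2.39 ± 0.16 (limma adjusted p = 1.24e-05). IPMI2 rose by 2.15 ± 0.16, AT2G31790 by 2.01 ± 0.11 and BCAT4 by 1.44 ± 0.24 in the same contrast, with the highest of their limma adjusted p-values at 0.00111. In these genes no warm shoot library overlapped the 22 °C shoots. CYP79F2 is 92.0% identical to CYP79F1 (AT1G16410) over 78.9% of its transcript, so the values of both are uncertain. In roots CYP79F1 had means of 10, 41 and 12, in the order 22 °C, 32 °C and gradient.

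The other 17 listed aliphatic glucosinolate genes are those the rule left after taking 6 on the same root values. Their root calls, like those of the lists below, are therefore a description, and they rest on the 1 library at 22 °C, which is assumed to vary like the warm roots. Of the 14 tested, 10 rose and none fell in 32 °C roots, against 31.9% and 12.1% of all tested genes, and 7 rose and none fell in gradient roots, against 11.1% and 5.15%. MYB28 (AT5G61420), a transcription factor that switches the pathway on, had a root value of 407 at 22 °C, with means of 1830 ± 184 at 32 °C and 1297 ± 127 in the gradient (SD, n = 3) and log2 fold changes of 2.16 and 1.66. In shoots, which the rule did not use, MYB28 rose by 1.30 at 32 °C and 1.04 in the gradient (limma adjusted p = 0.000294 and 0.00186). In roots the sulfotransferase gene SOT17 (AT1G18590) rose by 1.21 at 32 °C and 1.38 in the gradient, the bile acid transporter-like gene BAT5 (AT4G12030) by 1.21 and 0.78, and CYP83A1 (AT4G13770), which oxidises the aldoximes, by 1.78 and 1.37. CYP79F1, IIL1 (AT4G13430) and GSTU20 (AT1G78370) were not called in either contrast, with 32 °C values of 1.79, 0.41 and 0.67. The median over the 14 was 1.21 at 32 °C and 1.03 in the gradient, beside 0.29 and 0.09 over all tested genes. With TMM factors 6 of the 14 rose in each contrast and none fell, against 18.3% and 21.0% of all tested genes at 32 °C and 7.93% and 7.61% in the gradient. At 32 °C 6 rose without 32 °C root replicate 2 or without replicate 3, and in the gradient 4 rose without gradient root replicate 2. Over all tested genes too, fewer were called higher without each of these libraries, so the shares above are no match for these counts. In shoots 16 of the 17 were tested and all 16 rose in both warm regimes, against 55.5% and 52.6% of all tested genes, and 14 rose in each with TMM factors.

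**Figure D3:**
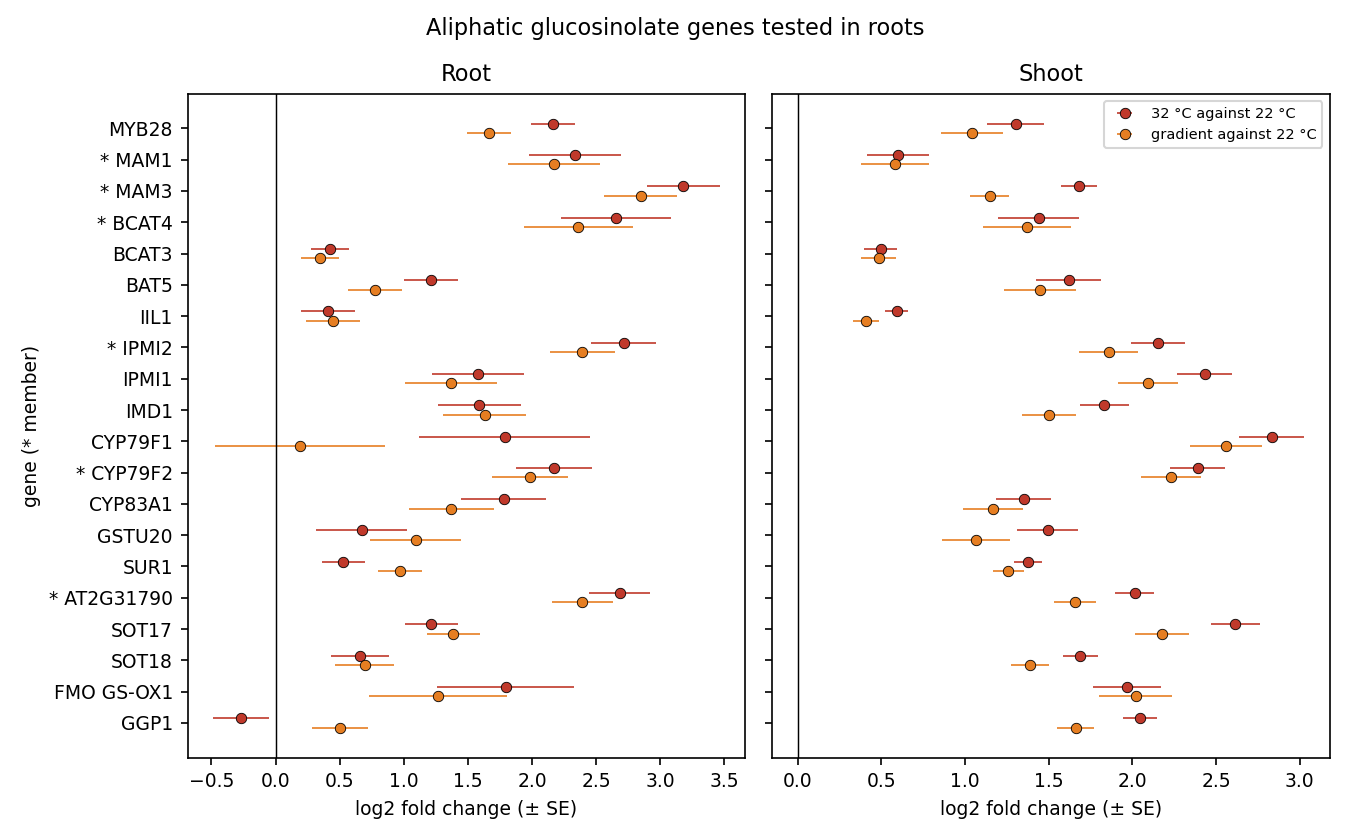
Log2 fold change against 22 °C (bars are standard errors) of the listed aliphatic glucosinolate genes tested in roots, in roots (left) and shoots (right), at 32 °C (red) and in the gradient (orange). Asterisks mark the 6 genes that met the root rule, whose root values are shown as a description. MAM1 has the smallest shoot change of the 6, at 0.60 at 32 °C.

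None of 14 listed indole glucosinolate genes passed the root rule. Of these, 6 rose and none fell in each warm root contrast, against 31.9% and 11.1% of all tested genes called higher, and with TMM factors 3 rose at 32 °C and 6 in the gradient. IGMT2 (AT1G21120), an O-methyltransferase gene of indole glucosinolate modification that was not on the list, did meet it. It read 1317 in the 22 °C root, 4921, 6668 and 8683 at 32 °C and 7212, 5973 and 8041 in the gradient, and it rose in 32 °C shoots by 1.78 ± 0.30 (limma adjusted p = 0.00116), from 108 and 152 to 304, 456 and 623. Its transcript is 96.3% identical to that of IGMT3 (AT1G21110) and 91.4% to that of IGMT1 (AT1G21100). IGMT1 had root means of 19450, 21891 and 33608 in the 3 regimes and was not called in either warm root contrast.

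PS2 (AT1G73010) and PLDP2 (AT3G05630) were the phosphate starvation genes among the 90. PS2 encodes an inorganic pyrophosphatase and PLDP2 a phospholipase D that degrades phospholipids, both induced when phosphate is short. PS2 stood at 253 in the 22 °C root, at 641, 629 and 2457 in the 32 °C roots and at 1798, 1246 and 1044 in the gradient roots. PLDP2 read 79, then 551, 570 and 1009 at 32 °C and 957, 533 and 338 in the gradient. Replicate 3 was the highest of the 32 °C roots in both genes and replicate 1 the highest of the gradient roots, so the likeness of the group means covers a wide spread within each regime. PS2 did not meet the rule with TMM factors or without 32 °C root replicate 3. PLDP2 did not meet it without gradient root replicate 1.

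The largest shoot change of all 90 genes was that of PS2. It read 48 and 35 in the 22 °C shoots, 3283, 2981 and 6288 at 32 °C and 2470 and 2302 in the gradient, a rise of 6.55 ± 0.30 at 32 °C and 5.83 ± 0.33 in the gradient (limma adjusted p = 2.61e-06 and 9.17e-06). PLDP2 went from 88 and 79 to 1599, 1112 and 1967 and 1277 and 1139, a rise of 4.17 ± 0.22 and 3.84 ± 0.24 (limma adjusted p = 4.1e-06 and 1.26e-05). At 22 °C each gene was about as high in shoots as in roots or lower, and in warm plants both were higher in shoots.

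Of 18 listed phosphate starvation genes 7 passed both fold limits, against 167 of 32548 nuclear loci, and nothing is read from this share either. The 5 of the 7 that failed the likeness limit all had the higher mean in the gradient, and that difference was not tested. SPX3 (AT2G45130), a regulator of the phosphate starvation response, had root means of 21 (22 °C), 297 (32 °C) and 614 (gradient), with log2 fold changes of 2.79 and 4.79 (limma adjusted p = 0.0865 and 0.0314). Among the 16 that did not meet the rule, 6 rose and none fell in 32 °C roots, against 31.9% of all tested genes called higher, and 9 rose and none fell in gradient roots, against 11.1%. Without gradient root replicate 2, 2 of the 16 rose in gradient roots. Over all tested genes too, fewer were called higher without that library, so the 11.1% is no match for this count. All 16 rose in both warm shoots, against 55.5% and 52.6%, and with TMM factors 16 rose at 32 °C and 15 in the gradient.

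PHR1 binds a short palindromic element called P1BS (GNATATNC). Because PS2 and PLDP2 met the rule, the 250 bases before the annotated start of each gene were searched for it, and the promoters of these genes are shown with those of 2 others that hold 2 matches. MEE23 (AT2G34790) is annotated as an FAD-binding protein of the berberine family and AT1G08165 as an uncharacterised protein. Sequences are from the RefSeq TAIR10.1 assembly, looked up by locus code and written 5′ to 3′ on the strand of the gene, with P1BS matches in capitals. PS2 and AT1G08165 lie on the minus strand of chromosome 1, PLDP2 on the plus strand of chromosome 3 and MEE23 on the minus strand of chromosome 2.
PS2: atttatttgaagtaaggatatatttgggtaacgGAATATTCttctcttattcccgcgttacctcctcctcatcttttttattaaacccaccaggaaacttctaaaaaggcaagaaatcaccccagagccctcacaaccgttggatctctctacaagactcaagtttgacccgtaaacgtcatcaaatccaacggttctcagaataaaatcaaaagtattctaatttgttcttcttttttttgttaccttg
PLDP2: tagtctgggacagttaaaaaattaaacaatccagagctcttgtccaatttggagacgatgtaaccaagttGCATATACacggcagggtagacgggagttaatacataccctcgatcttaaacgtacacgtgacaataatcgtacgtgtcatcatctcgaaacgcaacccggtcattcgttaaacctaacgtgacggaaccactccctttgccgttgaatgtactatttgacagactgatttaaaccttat
MEE23: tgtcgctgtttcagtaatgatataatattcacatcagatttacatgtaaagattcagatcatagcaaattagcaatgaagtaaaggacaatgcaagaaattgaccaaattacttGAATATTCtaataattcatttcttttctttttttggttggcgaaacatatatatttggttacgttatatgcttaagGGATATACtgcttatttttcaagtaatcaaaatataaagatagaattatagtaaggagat
AT1G08165: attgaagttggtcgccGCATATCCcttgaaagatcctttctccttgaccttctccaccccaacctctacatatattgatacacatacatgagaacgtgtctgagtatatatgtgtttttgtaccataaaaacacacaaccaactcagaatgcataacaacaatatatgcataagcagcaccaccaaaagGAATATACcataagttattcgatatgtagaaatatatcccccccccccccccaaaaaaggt
Counted back from the annotated start, the match lies at -217 to -210 in PS2 and at -180 to -173 in PLDP2. In MEE23 the matches lie at -136 to -129 and -60 to -53, and in AT1G08165 at -234 to -227 and -61 to -54.

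P1BS was present in 13 of the 89 promoters with sequence (14.6%), against 5.45% of 27431 nuclear protein-coding promoters of the same length. The others with a match were IGMT2, LOX4 (AT1G72520), JLO (AT4G00220), AT1G23160, AT1G65486, AT3G19430, AT3G62930, AT4G24430 and AT5G17340. Other motifs were searched on both strands in the same windows. The W-box of WRKY factors (TTGACC or TTGACT) was in 36.0% of the 89 and 28.4% of all promoters, and the G-box (CACGTG) in 5.62% and 6.49%. The evening element (AAAATATCT) was in 2.25% and 2.36%. A heat shock element of 3 alternating GAA and TTC units, each 2 bases from the next, was in 0 of the 89 and in 0.383% of all promoters. A motif match is a description of letters in these windows, and the members were not chosen by promoter sequence. P1BS, however, was searched because PS2 and PLDP2 were members, and both are among the 13, so nothing is read from its share.

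MEE23 and AT1G08165 were both high in the warm roots. MEE23 read 340 in the 22 °C root, 1410, 1712 and 1674 at 32 °C and 2443, 2049 and 1395 in the gradient. An antisense gene, AT2G08685, overlaps MEE23 over 538 bases, and with the strand setting unknown its values are uncertain. AT1G08165 read 7, then 75, 91 and 169 and 127, 81 and 148, ratios of 14.1 and 15. In shoots AT1G08165 was 15 and 26 at 22 °C, 103, 99 and 107 at 32 °C and 111 and 113 in the gradient, so that at 22 °C it was higher in shoots than in the root and in the warm regimes the organs were near each other.

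Of the defence hormone genes, FMO1 (AT1G19250), VSP2 and LOX4 met the rule. FMO1 makes N-hydroxypipecolic acid, a signal of systemic acquired resistance, and read 107 in the 22 °C root, 521, 608 and 1114 at 32 °C and 725, 783 and 746 in the gradient. It rose in 32 °C shoots by 4.09 ± 0.56 (limma adjusted p = 0.000378), from 5 and 1 to 38, 66 and 78. VSP2, a jasmonate-induced vegetative storage protein with phosphatase activity, read 305 in the 22 °C root, 1655, 2142 and 2100 at 32 °C and 2487, 3255 and 3002 in the gradient, and its warm root libraries did not overlap. VSP2 met the rule in 4 of 8 settings of scaling or left-out libraries, and not with TMM factors. In shoots VSP2 went from 330 and 275 to 6483, 10244 and 17331 and 5734 and 9229, a rise of 5.12 ± 0.38 at 32 °C (limma adjusted p = 1.71e-05). The related gene VSP1 (AT5G24780) did not share the root pattern, with means of 6102 (22 °C), 1935 (32 °C) and 7836 (gradient).

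LOX4, a lipoxygenase gene of jasmonate synthesis, read 58 in the 22 °C root, 288, 521 and 576 at 32 °C and 644, 359 and 409 in the gradient. Its 22 °C shoot libraries were 1534 and 148, and the change at 32 °C was 1.56 ± 0.86 and not called (limma adjusted p = 0.141). Without the 22 °C replicate at 1534 the change was 3.24, and without the other it was -0.13, so the 22 °C shoots decide its sign. Of the listed jasmonate genes that did not meet the rule, 10 were tested in roots, and 3 rose and 2 fell at 32 °C while 3 rose and none fell in the gradient, where 1 rose without 32 °C root replicate 2. With TMM factors these counts were 1 and 3 at 32 °C, and 2 and 0 in the gradient. Of 12 tested salicylic acid genes that did not meet it, 5 rose and 1 fell at 32 °C, and 8 rose and none fell in the gradient, where 3 rose without gradient root replicate 2. Over all tested genes 31.9% rose and 12.1% fell at 32 °C, and 11.1% rose and 5.15% fell in the gradient. These shares are from the fits with all libraries. In the gradient fewer of all tested genes were called higher without 32 °C root replicate 2 or gradient root replicate 2, so the 11.1% is no match for those counts.

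Several other genes, set side by side after their values were seen and from no list, were TED7 (AT5G48920), 2 hydrolase genes, 2 lyase genes, JLO and AT1G03820. TED7, named for tracheary element differentiation, read 132 in the 22 °C root, 752, 1065 and 789 at 32 °C and 1311, 1160 and 1113 in the gradient, and rose in 32 °C shoots by 2.86 ± 0.24 (limma adjusted p = 3.42e-05). The gradient roots were all above the 32 °C roots for TED7. RXF12 (AT1G58370) and AT4G08160, which encode glycosyl hydrolases of the xylanase family 10, are 2 of 3 loci in the table with that product name. RXF12 read 273, then 2330, 2707 and 2389 at 32 °C and 2690, 2153 and 1404 in the gradient, and AT4G08160 read 375, then 2123, 2333 and 2083 and 2794, 2329 and 1656. RXF12 rose in 32 °C shoots by 3.01 ± 0.30 (limma adjusted p = 7.39e-05), and AT4G08160 went there from 77 and 50 to 545, 748 and 485. The family is known for cutting xylan, the main hemicellulose of secondary walls.

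The rhamnogalacturonate lyase genes AT4G24430 and AT1G09890, of 7 loci with that product name, act on pectin by their annotation. AT4G24430 read 10 in the 22 °C root, 92, 215 and 163 at 32 °C and 213, 256 and 166 in the gradient, and AT1G09890 read 52, then 317, 389 and 308 and 301, 286 and 222. JLO, a lateral organ boundaries domain transcription factor gene, read 38, then 190, 217 and 214 and 236, 212 and 189. In each of these 3 genes all warm shoot libraries were above both 22 °C shoot libraries. The E6-like gene AT1G03820 read 559 in the 22 °C root, 3845, 3963 and 4428 at 32 °C and 2392, 2759 and 3333 in the gradient, with no overlap between the warm regimes. It rose in 32 °C shoots by 4.03 ± 0.20 (limma adjusted p = 3.41e-06).

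SWEET11 (AT3G48740), a sucrose exporter that loads the phloem in leaves, read 848 in the 22 °C root, 6825, 8123 and 3498 at 32 °C and 4495, 4638 and 4623 in the gradient, ratios of 7.24 and 5.4. Its shoots stood at 4906 and 4760 at 22 °C, 5447, 5848 and 4832 at 32 °C and 4458 and 5252 in the gradient. The shoot groups overlapped, and the change at 32 °C was 0.15 ± 0.10 and not called (limma adjusted p = 0.225), with a 95% interval from -0.09 to 0.39. With TMM factors it was -0.35 and called lower (limma adjusted p = 0.0105), so the direction of this small shoot change depends on the scaling.

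ATC (AT2G27550), a homolog of CENTRORADIALIS that belongs to the family of the flowering repressor TFL1, read 452 in the 22 °C root, 3811, 3578 and 3797 at 32 °C and 3546, 3048 and 3243 in the gradient. In shoots it rose from 17 and 10 to 260, 229 and 226 at 32 °C and 113 and 131 in the gradient, by 4.09 ± 0.24 at 32 °C (limma adjusted p = 6.42e-06). In each regime ATC was higher in roots than in shoots. CKX4 (AT4G29740), a cytokinin oxidase that breaks down cytokinins, read 724 in the 22 °C root, 3102, 3577 and 3094 at 32 °C and 3418, 3185 and 3080 in the gradient, and rose in shoots by 1.48 ± 0.21 at 32 °C (limma adjusted p = 0.000448). The abscisic acid receptor gene PYL6 (AT2G40330) read 71 in the 22 °C root, 575, 588 and 594 at 32 °C and 453, 539 and 452 in the gradient. Its shoot rise of 0.63 ± 0.18 at 32 °C (limma adjusted p = 0.0156) was not called with TMM factors, at 0.14, or without 22 °C replicate 1, at 0.55.

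Several of the 90 lie beside another of the 90 in the genome. The mannose-binding lectin genes AT1G52060 and AT1G52070 are neighbours on chromosome 1. AT1G52070 read 939 in the 22 °C root, 6253, 7366 and 6555 at 32 °C and 3492, 4984 and 6021 in the gradient, and AT1G52060 read 529, then 2175, 2552 and 2856 and 1951, 2666 and 3034. In shoots AT1G52070 was 3 and 15 at 22 °C, 124, 86 and 73 at 32 °C and 13 and 17 in the gradient. It rose at 32 °C by 3.54 ± 0.56 (limma adjusted p = 0.000779) and was not called in the gradient, at 0.99 (limma adjusted p = 0.187). AT1G52060 had the same order in shoots, with means of 3.5 (22 °C), 42.7 (32 °C) and 8 (gradient). Neither gene was called in gradient against 32 °C shoots, so a difference between the warm shoots is not shown.

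The uncharacterised genes AT1G65484 and AT1G65486 are neighbours on chromosome 1, with 1 locus between AT1G65486 and AT1G65500, which is also uncharacterised, and MAM1 and MAM3 are direct neighbours on chromosome 5. AT1G65484 read 136 in the 22 °C root, 680, 871 and 813 at 32 °C and 579, 576 and 894 in the gradient, and AT1G65486 read 123, then 1018, 1151 and 886 and 617, 700 and 1013. AT1G65500 read 49, then 396, 587 and 458 and 241, 364 and 426. In each of the 3 the highest gradient library was replicate 3, and the gradient mean was the lower of the warm means. AT3G23510, annotated as a cyclopropane fatty acid synthase, had root values of 1227 at 22 °C, 7137, 6682 and 6637 at 32 °C and 7811, 7804 and 5706 in the gradient, and a transcript 96.4% identical to that of AT3G23530. It rose in 32 °C shoots by 3.52 ± 0.30 (limma adjusted p = 3.5e-05). The dehydrogenase gene AT5G37980 had 28 in the 22 °C root and root ratios of 5.05 and 5.97, and rose in 32 °C shoots by 4.52 ± 0.34 (limma adjusted p = 1.8e-05). AT5G37980 is over 91% identical to AT5G38000, so its values are uncertain.

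MIOX4 (AT4G26260), a myo-inositol oxygenase gene, was the gene called lower in both warm shoots. Its roots read 26 at 22 °C, 141, 32 and 156 at 32 °C and 277, 99 and 51 in the gradient, with the lowest 32 °C library close to the 22 °C one. Its shoots read 42 and 44 at 22 °C, 8, 1 and 1 at 32 °C and 1 and 4 in the gradient, a change of -3.74 ± 0.76 and -3.80 ± 0.83 (limma adjusted p = 0.0029 and 0.00481). The floral homeotic gene PI (AT5G20240) had 24 in the 22 °C root, 211, 171 and 249 at 32 °C and 120, 124 and 194 in the gradient. In shoots PI read 31 and 18, then 32, 24 and 21 and 20 and 29, and its change at 32 °C of 0.09 ± 0.35 was not called (limma adjusted p = 0.825). The protease gene AT5G48430 read 385 in the 22 °C root, 1919, 2142 and 1892 at 32 °C and 1825, 1720 and 1680 in the gradient, while its shoots went from 83 and 131 to 25, 62 and 83 and 84 and 73 and were not called.

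**Figure D4:**
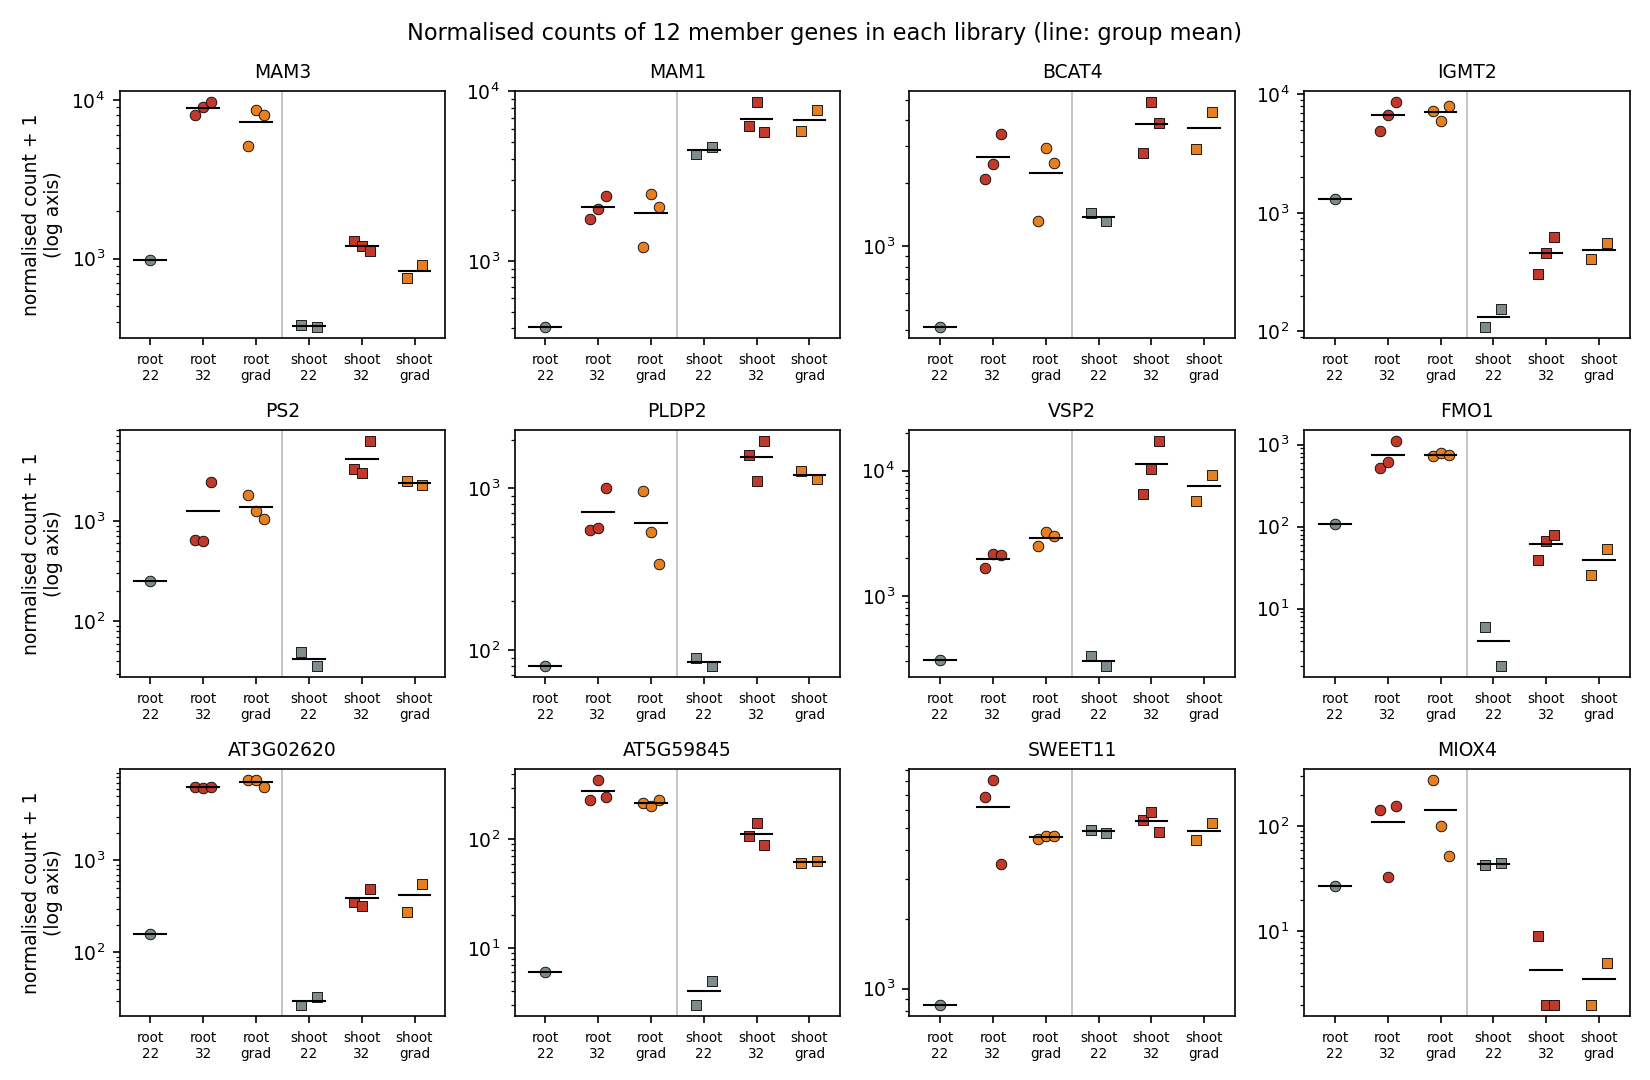
Normalised counts plus 1 of 12 of the 90 genes in each library (log axis; circles are roots, squares are shoots, and lines are group means). PS2, PLDP2 and VSP2 are higher in warm shoots than in warm roots, SWEET11 is near the same level in all shoots, and MIOX4 is lower in warm shoots than in 22 °C shoots.

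On the deposited scale, none of 28 listed heat shock protein and factor genes met the rule. In 32 °C roots 20 of the 27 tested rose and 2 fell, against 31.9% and 12.1% of all tested genes, and in gradient roots 17 rose and 1 fell, against 11.1% and 5.15%. The medians were 2.71 and 1.61, beside 0.29 and 0.09 over all tested genes. Of the 28, 8 passed both fold limits, against 167 of 32548 nuclear loci, and nothing is read from this share either. All 8 failed only the likeness limit, each with the higher mean at 32 °C. ROF2 (AT5G48570), a heat-induced prolyl isomerase gene, had root means of 168 (22 °C), 12283 (32 °C) and 2920 (gradient), and the small heat shock protein gene HSP17.6C (AT1G53540) had 3, 941 and 164. HSP18.2 came closest to likeness, with means of 63, 420 and 279. TMM factors moved the median root change of all tested genes from 0.29 to -0.03 at 32 °C and from 0.09 to -0.01 in the gradient. Whether HSP18.2 met the rule with TMM factors is not given here. Over all 16 lists, 11 of 226 listed loci met the rule, against 0.277% of nuclear loci. The lists were chosen with earlier results of these data known, so nothing is read from that count. Of the 215 others, 194 were tested. Of these, 86 rose and 22 fell in 32 °C roots, against 31.9% and 12.1% of all tested genes, and 82 rose and 10 fell in gradient roots, against 11.1% and 5.15%. Without gradient root replicate 2, 42 rose and 3 fell in gradient roots, and without 32 °C root replicate 1, 6 fell there. Fewer of all tested genes were called in gradient roots in those fits too, so the shares above are no match for these counts.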

How the data were processed

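Polyadenylated RNA of roots and shoots was profiled, per the labels' protocols. The authors deposited 1 table of 32833 loci, whose values are a score, namely their normalised counts as whole numbers. STAR 2.5.3a, HISAT2 and DESeq2 appear in the submitters' processing notes. The sources used here do not give the normalisation, genome build, strand setting or treatment of shared reads, so near-identical and overlapping or antisense genes are uncertain. Antisense genes overlap BCAT4 over 307 bases and AT2G31790 over 265, among others. Count models were not applied, since the values are normalised. Within each organ, log2(value + 1) was tested with limma 3.58.1 in R 4.3.3, with 1 mean per regime, an intensity trend and 4 residual degrees of freedom, for genes at 10 or more in at least 2 columns. The Benjamini-Hochberg adjustment covered every one of the 21877 tested genes. For the single 22 °C root library the fit borrows the spread of the warm roots. The fitting code was tested on simulated data. Names and sequences came from RefSeq TAIR10.1 through locus codes, which matched all 90 genes, and coordinates are left out, the authors' build being unknown. Near-identical copies had at least 90% identity over at least 30% of the transcript (BLAST+ 2.17.0). Genes were named by fixed limits of rank in root ratio, root level and shoot change, by membership of a list or by position beside another member. MEE23, RXF12, AT4G08160, AT1G09890, TED7, JLO, CKX4, PYL6 and PI were added after their values were seen. The members and lists were chosen with earlier results of these data known. Alternatives were a pseudocount of 8, no filter, TMM factors, equal totals, a replicate block, other limits of the rule, and leaving out each library.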

Additional observations from a re-analysis of the deposited data

Results flagged for a closer look

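MIOX4 stood above the 22 °C root in every warm root library and below both 22 °C shoot libraries in every warm shoot library, with a shoot log2 fold change of -3.74 at 32 °C against 22 °C. The difference between the organs was not tested, because the root values had chosen the gene. Its place among the 90 rested on single libraries. It met the rule in 3 of 8 settings of scaling or left-out libraries, and not with TMM factors or without replicate 1 or 3 of the 32 °C roots or of the gradient roots, and the lowest 32 °C root library read 32 against 26 at 22 °C.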

How the results depend on the processing

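The rule gave 90 genes as reported, 76 with TMM factors within the roots (61 of them among the 90), 86 with equal totals, 126 with a likeness limit of 2-fold, 105 with a minimum mean of 50, 165 with a minimum fold of 3, and 79 to 97 when a warm root library was left out. In all 8 settings of scaling or left-out libraries, 43 genes were kept. Genes described above that did not meet the rule with TMM factors included TED7, CKX4, MEE23, AT1G52060, AT4G24430 and AT1G63295. In roots TMM factors moved the median change of all tested genes at 32 °C from 0.29 to -0.03 (log2), and in the gradient from 0.09 to -0.01. In shoots the genes called higher numbered 67 to 73 at 32 °C and 62 to 72 in the gradient when a shoot library was left out. Those called lower at 32 °C numbered 3 with TMM factors, 2 with a replicate block and 1 to 2 when a library was left out, and in the gradient 2 with TMM factors. Between the warm shoots, 1 gene was called lower with a pseudocount of 8, 2 higher and 8 lower when identical columns were kept as separate replicates (an alternative chosen after seeing the data), and 0 to 2 lower when a library was left out, with 2 lower when either 22 °C shoot library was absent. The causes were not tested.

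The replicate numbers were not taken to pair the shoots, since same-numbered libraries deviated together with correlations of -0.18 to 0.25 across genes. With the replicate block, 71 genes were called higher at 32 °C and 73 in the gradient, against 73 and 72 without it. Listed genes outside the 90 called in gradient roots numbered 82 higher and 10 lower as reported. They fell to 41 and 3 with the replicate block and to 35 and 2 with the block numbered otherwise. They fell to 42 and 3 without gradient root replicate 2, and to 6 lower without 32 °C root replicate 1. In each of these fits fewer of all tested genes were called in gradient roots too. Leaving out a library gave 42 to 100 higher and 3 to 13 lower.

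Among single genes in shoots, SWEET11 changed sign with TMM factors (-0.35 at 32 °C and -0.49 in the gradient), and its gradient value ran from -0.116 to 0.120 when a library was left out, below 0 without 22 °C replicate 2 (-0.0199) or the identical gradient pair. PI changed sign with TMM factors (-0.38 and -0.45), without 22 °C replicate 2 (-0.28 and -0.35, where other left-out libraries gave up to 0.47 and 0.40), at 32 °C without 32 °C replicate 1 (-0.07), and in the gradient without the identical pair (-0.23) or with the block numbered otherwise (-0.12). LOX4 gave 3.24 and 3.05 without 22 °C replicate 1, both called, and -0.13 and -0.31 without replicate 2. AT1G52070 in the gradient gave -0.0114 without 22 °C replicate 1 and 1.99, called, without replicate 2. All these were uncalled as reported. Read depth is unknown, so no counting limit could be set for low values.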

Other observations

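Among the 90 genes, 4 carried the annotation of cysteine/histidine-rich C1 domain proteins, a product name shared by 141 loci in the table. These were AT1G44050, AT2G02680, AT3G11370 and AT4G14980, put side by side after their values were seen. AT2G02680, AT3G11370 and AT4G14980 did not meet the rule with TMM factors. AT2G02680 read 316 in the 22 °C root, 1437, 1395 and 1709 in the 32 °C roots, and 1758, 1268 and 827 in the gradient roots. In shoots AT1G44050, AT2G02680 and AT3G11370 were called higher at 32 °C and in the gradient, and AT4G14980 was called in neither contrast. Remorins, plasma membrane scaffold proteins, gave AT1G63295 and AT1G69325 of 17 loci. AT1G63295 was higher in the gradient roots (644, 768 and 782) than in the 32 °C roots (407, 613 and 450), and AT1G69325 had 266, 326 and 397 in the gradient roots and 478, 622 and 364 in the 32 °C roots. Of the 90 genes, 36 had a symbol other than the locus code and 89 were annotated as protein coding.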
